A study of Mus musculus with 7 samples.

Results

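Apolipoprotein E, lipases, lipid receptors, fatty acid carriers, a lipid droplet coat protein and cholesterol pumps were followed in single cells of mouse epidermis after bone marrow transplantation (BMT). The 10 genes were chosen by symbol: Apoe, Pltp, Lpl, Lrp1, Cd36, Fabp4, Fabp5, Plin2, Abca1 and Abcg1, of 31907 genes listed over all tables. Of these, 8 were listed for donor, keratinocyte and host cells alike; Fabp4 was not listed for donor cells and Cd36 was not listed for host cells, so neither has a value there. Droplet sequencing with unique molecular identifiers (UMIs), each standing for 1 captured RNA molecule, gave 11899 donor cells, 5426 keratinocytes and 781 host cells.

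All hosts were male CD45.2 C57BL/6 mice that had been irradiated and given female CD45.1 C57BL/6 bone marrow, and all cells were sorted from ear epidermis 3 weeks later; ages were not given in the sources used here. Donor CD11b+MHCII+ cells came as 3 libraries labelled BMT and 1 labelled BMT plus T-cells (BMT + T cells), CD45- keratinocytes of the host as 1 library under each label, and host CD11b+MHCII+ cells as 1 library labelled BMT. Donor and keratinocyte epidermis was pooled from several mice, while the mice behind each library, and those of the host library, were not given. The design text of the series puts Matahari T cells, which recognise a male antigen, into the model as a whole, whereas the sample labels put T cells into 1 donor and 1 keratinocyte library only, so the contrasts below are between labels.

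In lipid handling, Apoe coats lipoprotein particles, lipases and transfer proteins remodel them, and receptors take them up. Fatty acids that enter the cell are bound by small carrier proteins and either burned or stored as triglyceride in droplets coated by perilipins, while excess cholesterol leaves through ATP-driven pumps. Macrophages that clear dying cells are known for high expression of these genes, and Langerhans cells, the resident mononuclear phagocytes of the epidermis, live in a tissue that makes lipid for its barrier.

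The regulatory sequence of Abca1 and Plin2 is shown. With Cd36, whose sequence is not shown, these genes had the largest differences among the members between Hmox1+ monocytes and classical monocytes (below). Both windows run from 250 bases before to 50 bases after a RefSeq transcription start (GRCm38.p6), on the minus strand, at chr4:53159846-53160145 for Abca1 and chr4:86670010-86670309 for Plin2, and capitals mark the palindrome CACGTG, which reads the same on both strands.
Abca1: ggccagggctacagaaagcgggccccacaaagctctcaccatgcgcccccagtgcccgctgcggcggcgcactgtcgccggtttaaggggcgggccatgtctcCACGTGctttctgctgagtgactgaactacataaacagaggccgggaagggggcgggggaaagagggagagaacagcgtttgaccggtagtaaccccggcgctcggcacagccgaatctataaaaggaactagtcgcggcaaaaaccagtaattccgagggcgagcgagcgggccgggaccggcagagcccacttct
Plin2: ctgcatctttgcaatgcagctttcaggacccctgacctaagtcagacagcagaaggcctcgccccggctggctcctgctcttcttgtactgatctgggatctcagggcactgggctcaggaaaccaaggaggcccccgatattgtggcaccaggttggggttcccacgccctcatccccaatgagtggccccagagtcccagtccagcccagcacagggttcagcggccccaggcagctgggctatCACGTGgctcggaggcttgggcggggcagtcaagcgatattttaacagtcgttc
CACGTG is the core of the E-box bound by basic helix-loop-helix leucine zipper factors, and it was chosen for display after the sequences had been read. It started 147 bases before the start used for Abca1 and 4 bases before that used for Plin2. Both annotated genes reach further upstream than the start used, to 53159988 for Abca1 and 86670217 for Plin2. The motif of Plin2 thus lies inside the annotated gene. Of all 32851 RefSeq promoter windows of 300 bases, 7.15% held it. Counted by gene, 8.09% of 27025 genes had a window that held it. Of the 6 members with a window there (Abca1, Apoe, Cd36, Lrp1, Plin2 and Pltp), 2 did, and Cd36 did not.

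The 4 donor libraries held 226 to 8382 cells with a median of 7021.5 to 13387 UMIs per cell, the keratinocyte libraries 2590 and 2836 cells with medians of 8834 and 8895.5, and the host library 781 cells with a median of 4376. Levels are given as UMIs per 10000 UMIs of a cell (CP10K), averaged over the cells of a library and cluster; donor values use profiles of at least 20 cells and are listed in the order BMT 1, BMT 2, BMT 3 and BMT + T cells, with BMT 3 left out where a cluster has 3 values and both BMT 3 and BMT + T cells where it has 2. Gene positions are those of GRCm38.p6. Clusters were those of the authors, and since they were drawn from these same cells, a contrast between clusters characterises the annotation rather than testing it anew. The defining genes fitted the donor names: Cd207, Epcam and Mfge8 summed to 59.9 to 85.6 CP10K in resident monocyte-derived Langerhans-like cells (mLC) against 0.416 to 1.55 in Mono, the authors' classical monocyte cluster, and the monocyte genes Plac8, Lyz2, Ly6c2 and Chil3 to 98.0 to 185 in Mono against 1.70 to 1.98 in resident mLC. No pair of libraries shared more than 0.442% of the barcodes of the smaller one. The 4 donor libraries did not behave alike: 32.2% of genes tested in Mono were higher in both BMT 3 and BMT + T cells than in both BMT 1 and BMT 2, and 21.8% were lower in both. Their short names have 2 forms that follow this split, but no label names an experiment. The paper describes its donor cells as 2 combined experiments, without saying which libraries belong to each. It also describes donor cells sorted alongside the keratinocytes and added to an earlier set. Of the 9 members, 4 were higher (Apoe, Pltp, Lrp1 and Cd36) and 2 lower (Fabp5 and Abcg1) in this sense in Mono. In Mrc1+ macrophages 3 were higher (Apoe, Lrp1 and Plin2), against 22.5% of genes, and 2 lower (Fabp5 and Cd36), against 14.8%. With only cells of at least 500 genes and at most 20% mitochondrial UMIs, Plin2 was not higher in this sense there. It was then 0.263 CP10K in BMT 1, 0.235 in BMT 2 and 0.114 in BMT 3. In resident mLC 2 of the 6 members that averaged 0.1 CP10K or more were higher (Apoe and Plin2), against 20% of genes, and 2 lower (Fabp5 and Abcg1), against 26.9%.

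Apoe (chr7:19696244-19701310), the main apolipoprotein made by macrophages, had its highest means over libraries in Mono and Mrc1+ macrophages, carried by BMT 3 and BMT + T cells. In BMT 1 it was higher in Mrc1+ macrophages (1.87) and cycling mLC (0.673) than in Mono, and in BMT 2 highest in Hmox1+ monocytes (1.37). However, 30 of the 32 Apoe UMIs in cycling mLC of BMT 1 came from 1 cell. Without the top cell of each cluster and with UMIs pooled, cycling mLC of BMT 1 had 0.0248 CP10K, below Mono at 0.197. In BMT 2 Hmox1+ monocytes then had 1.28, below Mrc1+ macrophages at 1.39. In Mono the Apoe level was 0.457 CP10K in BMT 1, 1.03 in BMT 2, 22.9 in BMT 3 and 12.7 in BMT + T cells. The last 2 libraries stood apart from the first 2, with a ratio of their means of 24.0, and in log2 terms no gene of 6878 differed more in that direction between these pairs of libraries. The same split was seen in Mrc1+ macrophages, with 1.87 and 1.16 CP10K in BMT 1 and 2 against 8.52 in BMT 3 and 6.48 in BMT + T cells, and there Apoe ranked 11 of 7111 genes. In resident mLC the levels were 0.0259, 0.118, 0.744 and 0.170. The ranges of the pairs again did not overlap, but 98 of the 117 Apoe UMIs in BMT 3 came from 1 cell, as did 52 of the 115 in BMT + T cells.

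The library split of Apoe was also one of cells. In Mono, 11.8% of cells in BMT 1 and 13.5% in BMT 2 held an Apoe UMI, against 59.8% in BMT 3 and 50.8% in BMT + T cells. After each cell was thinned to 2000 UMIs these shares were 4.54%, 8.55%, 48.8% and 37.8%. Median depths of these cells were 10821, 5382, 10802 and 11693 UMIs. Within Mono the signal was also uneven, since the tenth of cells with most Apoe held 96.5% of its UMIs in BMT 1, 94.9% in BMT 2, 58.4% in BMT 3 and 66.3% in BMT + T cells. Free RNA can add UMIs to cells that do not make a transcript: in resident mLC of the same libraries, the thinned shares were 0.632%, 2.32%, 6.99% and 2.75% at median depths of 7343 to 18027 UMIs. Keratin and other keratinocyte genes, of which 7 of 10 were listed, summed to 0.491 to 1.75 CP10K in Mono, against 397 to 716 for all 10 in keratinocytes, whose Apoe level was 6.97 to 16.2. BMT 3 carries the BMT label, and its Mono level was above that of BMT + T cells. What set the library pairs apart, label, experiment and depth included, was not tested.

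Pltp (chr2:164839518-164857708), the phospholipid transfer protein, followed Apoe in Mono. Its level was 0.257 CP10K in BMT 1 and 0.637 in BMT 2, against 2.71 in BMT 3 and 2.00 in BMT + T cells. Here too the library pairs did not overlap, while in Mrc1+ macrophages they did, at 0.797, 0.557, 0.361 and 0.885. Over clusters, mean Pltp ran from 1.40 ± 1.15 (SD, n = 4) in Mono through 0.855 ± 0.161 (n = 3) in interferon-stimulated (ISG) monocytes to 0.0977 ± 0.135 (n = 4) in resident mLC, and the first 6 clusters of that order overlapped each with its neighbour.

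Lpl (chr8:68880555-68906932), the lipase that frees fatty acids from lipoproteins, was low in all donor clusters. It was 0.328, 0.157, 0.228 and 0.223 CP10K in Mono and 0.517, 0.170, 0.0378 and 0.292 in Mrc1+ macrophages. In resident mLC 15 UMIs were counted in 1651 cells, and no library exceeded 0.0122 CP10K. The intermediate cells that the authors name MC had 0.483, 0.114 and 0.169 in the libraries with enough cells, in a range shared with Mono and Mrc1+ macrophages.

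Lrp1 (chr10:127538157-127621148), a large receptor that binds Apoe-bearing particles, separated monocytes and macrophages from mLC in all libraries. It was 3.17, 3.48, 4.65 and 4.03 CP10K in Mono, 4.79, 4.11, 8.80 and 5.0 in Mrc1+ macrophages and 0.191, 0.492, 0.277 and 0.449 in resident mLC. The lowest Mono library was thus well above the highest resident mLC library. Hmox1+ monocytes, which express heme oxygenase, had 5.74, 7.19 and 7.40, overlapping only with Mrc1+ macrophages among the other clusters. Migrating mLC, which express Ccr7 and Cd83, had 1.35 and 1.34, above every resident mLC library.

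Cd36 (chr5:17781690-17888959), a scavenger receptor and fatty acid translocase, was near 0 in resident mLC. There it was not counted in BMT 1 and BMT 3, at 0.0661 CP10K in BMT 2 and at 0.00594 in BMT + T cells, with 46 UMIs over the 4 libraries. Mono had 0.303, 0.389, 0.436 and 0.808, and Mrc1+ macrophages 1.39, 2.26, 0.742 and 0.571. Hmox1+ monocytes ranged widely, at 0.597 in BMT 1 (24 cells), 5.13 in BMT 2 and 5.14 in BMT + T cells. All neighbours in the order of clusters overlapped except resident mLC, which lay below every library of the next cluster.

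Fabp5 (chr3:10012585-10016610), the epidermal fatty acid binding protein, was lowest in resident mLC in every library, while the order of the high clusters varied. Migrating mLC had 17.0 and 24.5 CP10K in the 2 libraries with enough cells, and Hmox1+ monocytes 18.5, 13.6 and 23.4. Mono had 8.07, 12.4, 4.44 and 5.43, and resident mLC 0.416, 0.880, 0.119 and 0.396. Cycling mLC, at 1.86, 1.84 and 0.916, lay between resident mLC and the remaining clusters and overlapped neither. Mrc1+ macrophages, highest of all clusters in BMT 1 but below migrating mLC in BMT 2, spread most over libraries, with 22.6 and 13.7 in BMT 1 and 2 against 3.30 in BMT 3 and 6.64 in BMT + T cells. For Fabp5 the library pairs were thus in the opposite order to Apoe, and they did not overlap in Mono, Mrc1+ macrophages or resident mLC.

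Plin2 (chr4:86626910-86670217), the coat protein of cytosolic lipid droplets, stood out in 1 cluster. Hmox1+ monocytes had 0.936, 0.980 and 1.44 CP10K, above every library of every other cluster with at least 20 cells, where the highest value was 0.596 in Mrc1+ macrophages of BMT 3. That value was 0.114 with only cells of at least 500 genes and at most 20% mitochondrial UMIs. In Mono Plin2 was 0.173, 0.218, 0.380 and 0.161 and in resident mLC 0.194, 0.197, 0.278 and 0.246, so these clusters overlapped. It was the member with the least difference between them.

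Abca1 (chr4:53030789-53159988), the pump that loads cholesterol onto apolipoprotein A1 and Apoe, was highest in Hmox1+ monocytes and Mrc1+ macrophages. Hmox1+ monocytes had 4.50, 8.76 and 6.48 CP10K and Mrc1+ macrophages 3.74, 4.58, 6.11 and 2.49. Mono had 0.824, 1.90, 1.80 and 2.86, and resident mLC 0.376, 0.497, 0.183 and 0.513. All Hmox1+ monocyte libraries lay above all Mono libraries, and all Mono libraries above all resident mLC libraries. In contrast Abcg1 (chr17:31057694-31117984), the partner pump that passes cholesterol to mature lipoproteins, varied less: its cluster means ran from 5.63 ± 1.36 (n = 3) in ISG monocytes to 3.00 ± 1.04 (n = 4) in resident mLC, with every neighbour overlapping.

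**Figure D1:**
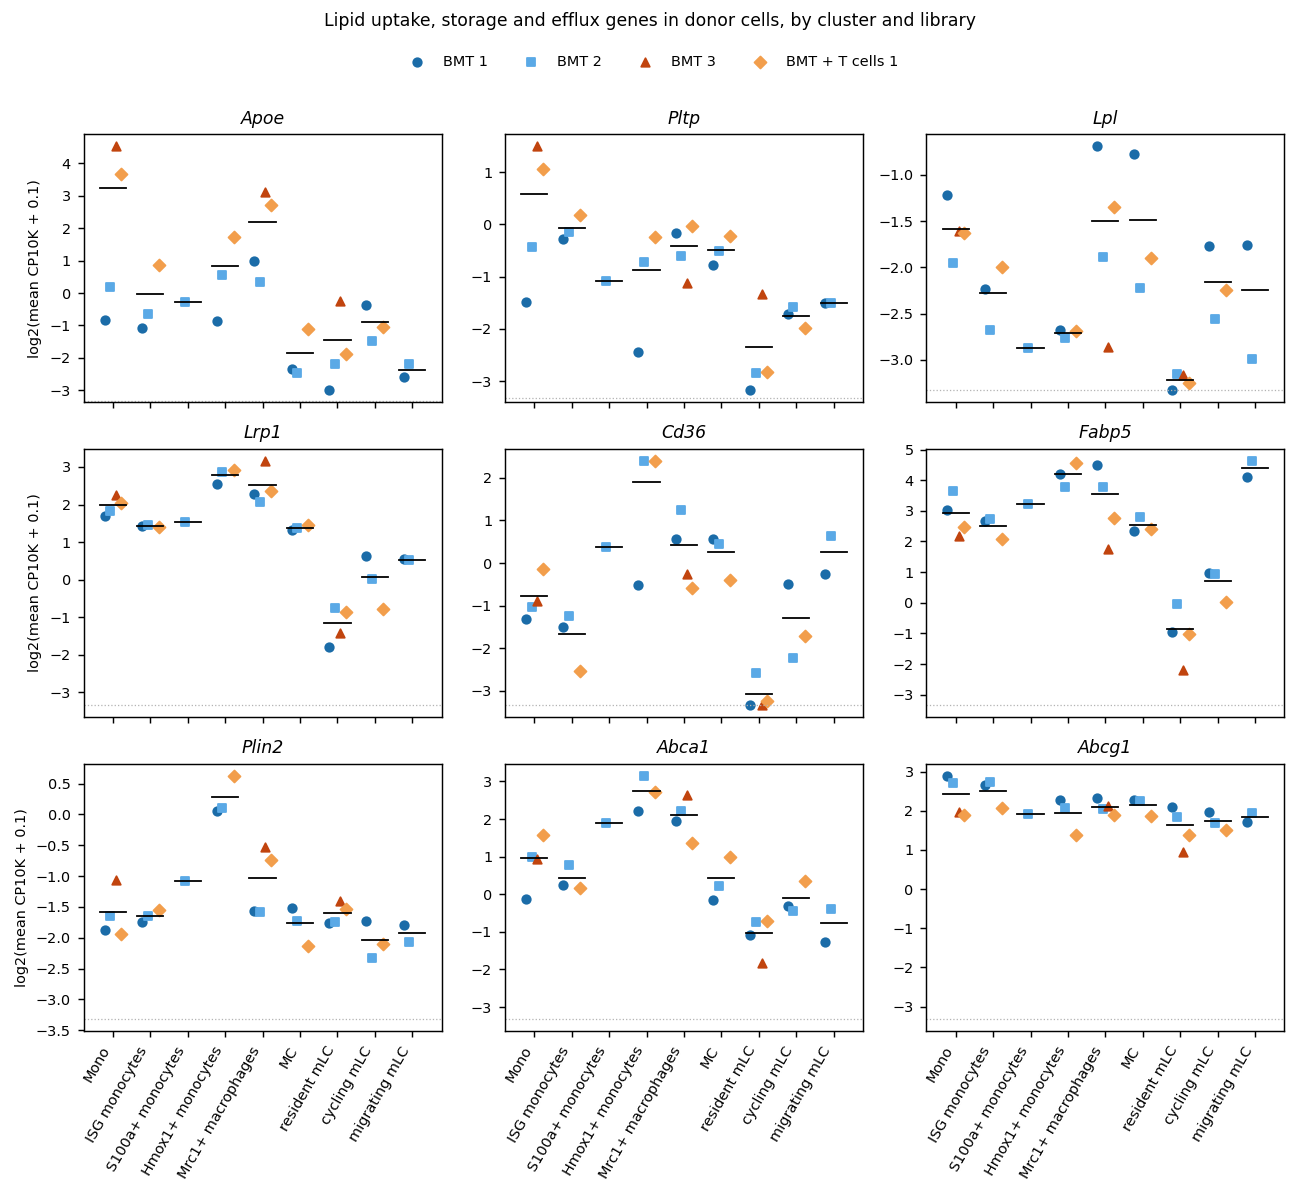
Levels of the 9 members listed for donor cells, as log2(mean CP10K + 0.1), by cluster and library; each point is 1 library with at least 20 cells of the cluster, the black line is the mean CP10K over libraries, and the dotted line is the value of a level of 0. Resident mLC have the lowest mean for all members but Apoe and Plin2, though for Lrp1, Abca1, Pltp and Abcg1 their range overlaps that of the next cluster. Hmox1+ monocytes are highest for Plin2, and in Mono Apoe and Pltp of BMT 3 and BMT + T cells lie above BMT 1 and 2.

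The start and end of differentiation towards Langerhans-like cells were compared first. Relative to Mono, resident mLC had lower levels of 8 of the 9 members tested, by limma over 7267 genes with library as a block and a Benjamini-Hochberg adjusted p under 0.05, where 32.7% of all genes passed and 14.3% passed as lower. Fabp5 fell by 3.88 on the log2 scale (SE 0.28, adjusted p = 5.01e-10), Apoe by 3.71 (SE 0.55, adjusted p = 3.36e-05) and Lrp1 by 3.16 (SE 0.24, adjusted p = 2.16e-10). Each of the 8 was lower in 4 of 4 libraries. All fold changes are on the scale of log2(CP10K + 0.1), which understates the change of low genes such as Lpl (-1.62) and Cd36 (-2.27, adjusted p = 0.00329), and the call for Cd36 was lost with a pseudocount of 1 or with means of the log values (adjusted p over its alternatives up to 0.406). Pltp differed by -2.70, Abca1 by -1.93 and Abcg1 by -0.80, and Plin2 did not pass (0.02, SE 0.22, adjusted p = 0.964). Beyond a log2 fold change of 2 in size lay 5 members, against 4.06% of all genes. The median of the 9 was -2.27 and that of all genes 0.14.

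Of the other genes of lipid handling, a list of 54, 33 were tested. In resident mLC 12 were lower than in Mono, and 7 were higher, a share near the 18.4% of all genes that passed as higher. The largest differences, all lower, were Sdc4 (-2.65), a heparan sulphate proteoglycan that binds lipoproteins, Trem2 (-2.55), a lipid-sensing receptor, and the scavenger receptors Msr1 (-2.52) and Olr1 (-2.35). Among the higher genes, named after their values were seen, were Lsr, a lipoprotein receptor (1.87), Dgat2, which makes triglyceride (1.82), and Acsl5 (1.53), Acsl3 (1.04) and Acsl4 (0.73), which activate fatty acids. By class, 3 genes of fatty acid uptake and activation were higher and 2 lower, and 2 of storage were higher and 1 lower. Of the Apoe receptors 1 was higher and 3 lower. Dgat2 was 1.28 CP10K on average in resident mLC and 0.300 in Mono. The list median was -0.32, against 0.14 over all genes.

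Mrc1+ macrophages were next compared with Mono. Of the 9 members, Abca1 alone passed (1.20, SE 0.30, adjusted p = 0.0143), where 7.86% of all genes did and 3.67% as higher; it was higher in 3 of 4 libraries. That call did not hold without BMT 1, without BMT 2, without BMT 3, without the block, without the filter on low values or with at least 50 cells per profile, with adjusted p up to 0.167. Cd36 differed by 1.09 (SE 0.55, adjusted p = 0.240) and Apoe by -0.10 (SE 0.55, adjusted p = 0.945). Of the other lipid genes 6 of 33 passed, all higher, led by Slc27a1, a fatty acid transporter (1.52), Stab1, a scavenger receptor (1.30), Mylip, a ligase that degrades lipoprotein receptors (1.21), and Hilpda (1.03).

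Set directly against resident mLC, Mrc1+ macrophages had higher levels of 8 of 9 members, where 31.5% of all genes passed and 13.6% passed as higher. The largest differences were Fabp5 (4.25, SE 0.28), Lrp1 (3.67, SE 0.24), Apoe (3.62, SE 0.55), Cd36 (3.37, SE 0.55) and Abca1 (3.13, SE 0.30), each in 4 of 4 libraries with limma adjusted p of at most 8.87e-05. Past a log2 fold change of 2 lay 6 members, against 3.51% of all genes. Plin2 did not pass (0.51, SE 0.22, adjusted p = 0.0723). With means of the deposited log values in place of the log of means, 5 members passed in place of 8, and Abcg1, Pltp and Cd36 were lost. Abcg1 (0.53, SE 0.15, adjusted p = 0.00681) was also lost without the block and without BMT 3, with adjusted p up to 0.573. This contrast shares its resident mLC samples with the preceding ones. In the wider list 14 genes were higher and 5 lower, where 17.9% of all genes passed as lower: Trem2 (3.68), Stab1 (3.14), Msr1 (2.75) and Olr1 (2.52) led, and Lsr, Acsl5, Dgat2, Rxra and Acsl3, named after their values were seen, were lower in the macrophages.

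Migrating mLC, with at least 20 cells in BMT 1 and BMT 2, were compared with resident mLC of all 4 libraries, with library as a block. Higher levels of 3 of 9 members were called, where 20.1% of all genes passed and 6.81% passed as higher. Fabp5 rose most (4.86, SE 0.36, adjusted p = 3.22e-09), by 5.05 within BMT 1 and 4.65 within BMT 2, followed by Cd36 (3.15, SE 0.69, adjusted p = 0.00317) and Lrp1 (1.82, SE 0.30, adjusted p = 1.16e-04). Fabp5 and Cd36 were past a log2 fold change of 2, against 2.61% of all genes. The Cd36 call was lost without BMT 2, with a pseudocount of 1 and with means of the log values (adjusted p up to 0.233 over its alternatives). Without BMT 3 5 members passed, with Pltp and Lpl added. Apoe (0.61, SE 0.70; 0.40 within BMT 1 and 0.013 within BMT 2), Abca1 (0.34, SE 0.38), Plin2 (-0.12, SE 0.27) and Abcg1 (-0.03, SE 0.18) did not pass. Of the wider list 6 genes were higher and 6 lower, where 13.3% of all genes passed as lower. The largest differences were Olr1 (3.44), Dgat2 (-2.16), Slc27a3, a fatty acid transporter (2.10), and Sdc4 (1.90).

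Hmox1+ monocytes, with at least 20 cells in 3 libraries, were compared with Mono of all 4 libraries, with library as a block. Of the 9 members 5 were higher and 2 lower, where 15.5% of all genes passed, 4.91% as higher and 10.6% as lower. Cd36 (2.18, SE 0.60, adjusted p = 0.0193), Plin2 (2.04, SE 0.24, adjusted p = 1.72e-06) and Abca1 (1.84, SE 0.33, adjusted p = 5.04e-04) differed most, then Fabp5 (0.99, SE 0.31, adjusted p = 0.0336) and Lrp1 (0.90, SE 0.27, adjusted p = 0.0226). Lpl (-1.22, SE 0.31, adjusted p = 0.00857) and Abcg1 (-0.57, SE 0.16, adjusted p = 0.0179) were lower. Lpl rested on 11 UMIs in the Hmox1+ cells of the 3 libraries. Past a log2 fold change of 2 lay Cd36 and Plin2, against 0.894% of all genes. Plin2 and Abca1 passed under all 12 alternatives and Cd36 under 10, being lost without BMT 2 and without BMT + T cells. The other calls were less stable: Lrp1 and Abcg1 passed under 8 alternatives each (adjusted p up to 0.181 and 0.322), Lpl under 7 (up to 0.147) and Fabp5 under 5 (up to 0.379), the last being lost also with means of log values, with limma-voom and with at least 50 cells. The number of members called was 3 without BMT 1, 3 without BMT 2, 3 without BMT + T cells and 3 without the block. Of the wider list 5 were higher and 2 lower. Hilpda, a lipid droplet protein that inhibits triglyceride breakdown, rose by 3.40 (SE 0.35, adjusted p = 3.12e-07), and Slc27a1 by 2.73 (SE 0.29), while Slc27a3 fell by 1.24 on the log2 scale. Hilpda in Hmox1+ cells was 2.78 CP10K in BMT 1, 4.47 in BMT 2 and 5.30 in BMT + T cells. Median depth of Hmox1+ cells was 7324.5, 3751 and 8924 UMIs in these libraries, below that of Mono in each.

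**Figure D2:**
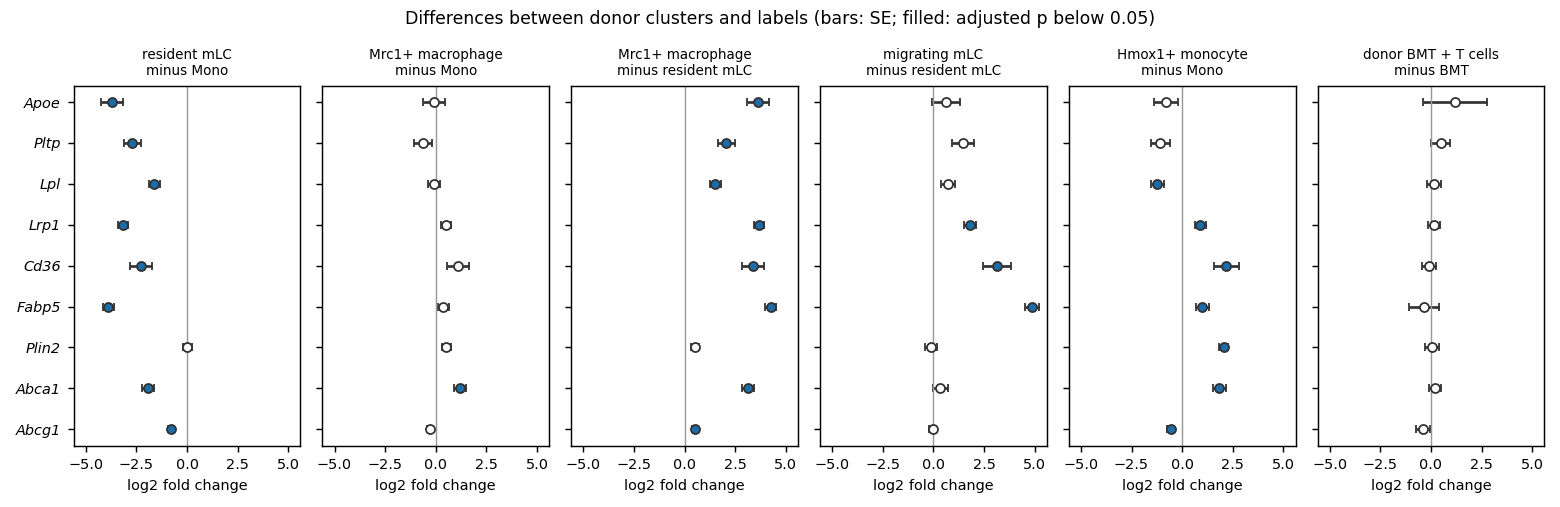
Log2 fold changes of the 9 members in donor cells, 1 panel per contrast, from limma on log2(CP10K + 0.1); points are estimates, bars the standard error, and filled points have an adjusted p below 0.05 over all genes tested. Resident mLC are lower than Mono for 8 members, migrating mLC exceed resident mLC for Fabp5, Cd36 and Lrp1, and no member passes between the labels BMT + T cells and BMT.

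Between the labels BMT + T cells and BMT, none of the 9 members passed in limma over 7345 genes, of which 0.0% passed; 352 genes (4.79%) had an unadjusted p under 0.05. The level was the mean over Mono, Mrc1+ macrophages and resident mLC, the clusters with at least 20 cells in all libraries, and the lone BMT + T cells library was assumed to vary like the 3 BMT libraries. Apoe differed by 1.18 with an SE of 1.58 (adjusted p = 0.967), Fabp5 by -0.35 (SE 0.75) and Pltp by 0.48 (SE 0.46). Without BMT 3, Apoe differed by 2.26, Pltp by 0.85 and Fabp5 by -0.93. The label then coincided with the form of the library names, so these could not be told apart. With the form of the library name as a term, Apoe differed by -0.96.

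The members did not follow 1 pattern over the 27 donor profiles of library and cluster. Lrp1 and Abca1 were the most alike of them, with a Pearson correlation of 0.85 on the log2 scale across profiles, and Fabp5 and Cd36 came next with 0.80, while Abcg1 and Apoe had -0.03 and Lpl and Plin2 -0.18. Profiles share libraries and clusters, so these are descriptions. Of the 7266 other genes, the 3 most like Plin2 were Hilpda (0.91), Wwc1 (0.90) and Gab1 (0.87), and those most like Fabp5 were Nrp2 (0.94), Klf6 (0.91) and Cstb (0.91). Lrp1 had Vat1 (0.97), Cyth4 (0.96) and Tcirg1 (0.94), Abca1 had Slc37a2 (0.92), Fn1 (0.91) and Dab2 (0.90), and Apoe had Tspan4 (0.88), Rnase4 (0.87) and Rab11fip5 (0.84). For the others the 3 were Hpcal1, Unc93b1 and Tlr1 for Pltp (0.88 to 0.83), Arhgap10, Cd200r1 and F7 for Cd36 (0.84 to 0.83), Slamf8, Smpdl3b and Naip2 for Abcg1 (0.84 to 0.81) and Blvrb, Lacc1 and Selenom for Lpl (0.78 to 0.69).

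Keratinocytes carried Apoe throughout. Its level was 9.88 CP10K (BMT) and 10.3 (BMT + T cells) in basal cells, 6.97 and 7.72 in differentiated cells, 16.1 and 16.2 in the hair follicle cluster, 7.96 and 9.58 in KC_Four and 8.01 and 9.12 in KC_Five, the last 2 being clusters with the cycling genes Top2a and Mki67. Both hair follicle values lay above all others. After thinning to 2000 UMIs, 71.4% to 84.2% of cells in each cluster and library held an Apoe UMI. Single cells of the hair follicle cluster reached 100 and 121 Apoe UMIs, against 39 and 47 in basal cells. The follicle cluster also held sebocyte genes, whose list of 4 summed to 7.48 and 12.1 CP10K against 1.07 to 2.03 in other clusters, and 4 fibroblast genes at 5.28 to 6.65 against at most 0.543; their part in its Apoe was not tested.

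Fabp5 was a gene of differentiated keratinocytes, with 12.1 and 10.8 CP10K there, 6.07 and 3.37 in the hair follicle cluster, and 0.354 and 0.980 in basal cells. In differentiated cells 62.0% and 52.3% held a UMI after thinning, in basal cells 5.32% and 5.80%. Abcg1 was highest in basal cells, at 1.11 in both libraries, against 0.437 to 0.698 elsewhere. Fabp4, the carrier of adipocytes, was not counted in any of 5426 keratinocytes; 3 UMIs, the limit taken for a count of 0, would be 0.00202 and 0.00197 CP10K in the basal cells of the libraries. Cd36 and Lpl were counted only in the hair follicle cluster, with 20 and 1 Cd36 UMIs and 23 and 7 Lpl UMIs, and Plin2 was at 0.106 and 0.115 there and at most 0.0145 elsewhere.

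Of the 10 members 6 had enough counts to be tested between keratinocyte clusters by limma over 7650 genes, with 2 libraries of different label. In hair follicle against basal cells 3 passed, where 25.5% of all genes did, 15.5% as higher and 10.0% as lower: Fabp5 (2.72, SE 0.59, adjusted p = 0.0376) and Apoe (0.67, SE 0.05, adjusted p = 7.86e-09) were higher and Abcg1 (-0.91, SE 0.11, adjusted p = 2.52e-06) was lower. Fabp5, the member past a log2 fold change of 2 (1.57% of all genes), was lost with limma-voom (adjusted p up to 0.0972). In differentiated against basal cells 5 passed, where 30.3% of all genes did, 10.5% as higher and 19.8% as lower: Fabp5 was higher (4.04, SE 0.59, adjusted p = 0.00944; 1.06% of all genes were past a log2 fold change of 2), and Abcg1 (-0.90), Pltp (-0.82), Abca1 (-0.70, lost without the filter on low values, adjusted p up to 0.112) and Apoe (-0.45, SE 0.05, adjusted p = 1.79e-06) were lower. Each called member moved the same way in both libraries. Of 30 tested genes of the wider list, 10 were higher and 4 lower in the follicle cluster, led by Soat1, which makes cholesteryl ester (2.95), Acsl4 (2.01), Slc27a1 (1.83) and Dgat2 (1.56), and 9 were higher and 8 lower in differentiated cells, led by Dgat2 (2.48), Acsl1 (1.61), Vldlr (-1.36) and Abhd5, an activator of triglyceride lipase (1.05).

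Between the keratinocyte labels there was 1 library each and so no test. A member was named where exact Poisson 95% intervals, which cover counting error only, did not overlap and the pooled levels differed by over 1.5 times. Fabp5 was named in 3 clusters and Abca1 in 1. In basal cells Fabp5 was 2.29 CP10K (2.21 to 2.36) under BMT + T cells and 0.383 (0.352 to 0.415) under BMT, where 1.1% of genes were named as higher. However, 1 cell of the former held 1350 of the 3475 UMIs, and without the top cell of each library the values were 1.40 and 0.352. The opposite order was seen in the hair follicle cluster (4.57 under BMT + T cells and 8.94 under BMT, where 1.49% of genes were named as lower) and in KC_Four (0.248 and 0.609, 0.999% named as lower). Abca1 in the follicle cluster was 0.685 (0.582 to 0.802) under BMT + T cells and 0.451 (0.372 to 0.541) under BMT, where 1.26% of genes were named as higher. Apoe was not named in any cluster, with 16.1 under BMT + T cells and 14.8 under BMT in the follicle cluster.

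**Figure D3:**
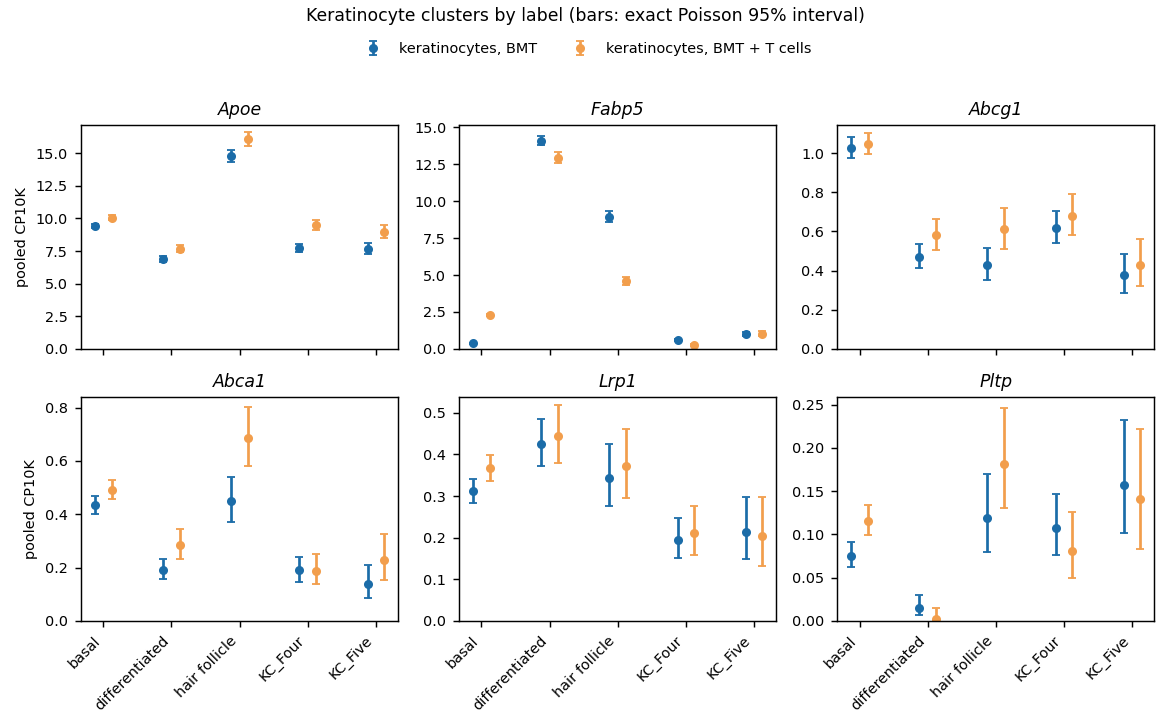
Pooled CP10K of the 6 members tested in keratinocytes by cluster and label; points are all UMIs of a library and cluster per 10000, and bars are exact Poisson 95% intervals for counting error. Apoe is highest in the hair follicle cluster under both labels, and Fabp5 in differentiated cells.

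The host library, with no replicate, held 7 numbered clusters, and they were not all CD11b+MHCII+ myeloid cells by their genes. The 10 keratinocyte genes summed to 478 CP10K in cluster 5 (43 cells) and the 4 leukocyte genes to 11.9, and 3 detected T cell genes to 63.8 in cluster 6 (23 cells). Apoe was 49.7 CP10K in cluster 5, with a UMI in all 43 cells, 6.03 in cluster 2 and 0.0893 to 0.787 in the remaining 5. Cluster 2 held 48.3 of the Langerhans genes Cd207, Epcam and Mfge8 and also 67.5 of the keratinocyte genes, and cluster 7 (18 cells) held 62.7 of the latter with Apoe at 0.787. Clusters 1, 3 and 4 had 4.12 to 7.95 of the keratinocyte genes and Apoe of 0.277 to 0.482. The part of keratinocyte RNA in host Apoe was not tested; sorted keratinocytes, with sums of 397 to 716, had at most 16.2 CP10K of Apoe, below cluster 5. With only cells of at least 500 genes and at most 20% mitochondrial UMIs, Apoe was 4.49 in cluster 2 (58 of 170 cells) and unchanged in cluster 5.

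Host cluster 4, which held the migrating genes at 29.5 CP10K against at most 2.01 in the others, had Fabp5 at a pooled 4.03 CP10K (3.54 to 4.58), against 0.0881 (0.0423 to 0.162) in cluster 1 and 0.127 (0.0607 to 0.233) in cluster 3. In cluster 2 Fabp5 was 0.406 (0.278 to 0.573). Lpl had the reverse order, at 0.344 (0.244 to 0.470) in cluster 1 and 0.443 (0.309 to 0.616) in cluster 3 against 0.0837 (0.0272 to 0.195) in cluster 4. Plin2 was highest in cluster 2, at 0.862 (0.669 to 1.09). Lrp1 was 0.238 and 0.203 in clusters 1 and 3 and was not counted in the 90 cells of cluster 4, for which 3 UMIs would be 0.0502 CP10K. Fabp4 gave 5 UMIs in the whole library, and Pltp 35, of which 18 were in cluster 5 and 14 in cluster 6. Donor and host tables were made separately, so these levels were not tested against donor cells.

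**Figure D4:**
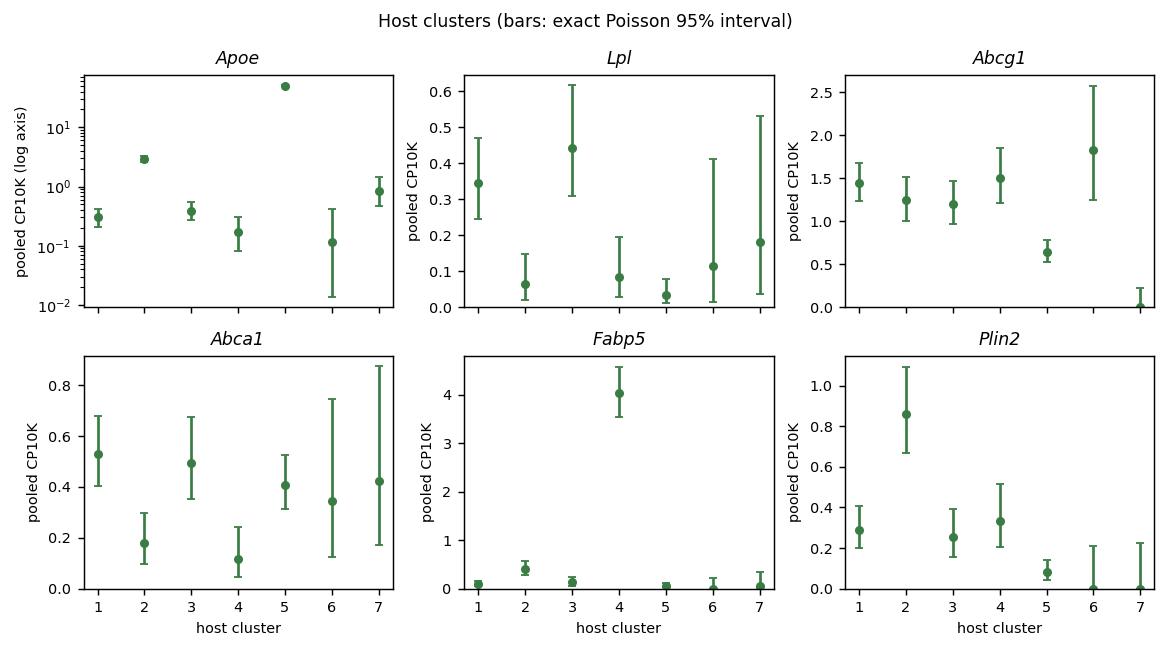
Pooled CP10K of 6 members in the 7 host clusters; points are all UMIs of a cluster per 10000, bars exact Poisson 95% intervals for counting error, and the Apoe axis is logarithmic. Apoe peaks in cluster 5 and Fabp5 in cluster 4, while Lpl is higher in clusters 1 and 3 than in clusters 2, 4 and 5.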

How the data were processed

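Single cells of 7 libraries were captured with a 10x Genomics 5' kit. Per the labels and the submitters' processing notes, the authors used kallisto, bustools and Seurat with GRCm38, and they deposited values as the natural log of 1 plus UMIs per 10000 UMIs of the cell; the mitochondrial share was deposited in percent, and cluster and library names as other columns. The authors' methods state that doublets had been removed, and none was sought here. After undoing the log, 100.0% of values were whole UMIs (tolerance 0.001), so UMIs and depth were recovered. The 15155 genes listed for donor cells covered 91.3% of the UMIs of the median cell. All cells were kept.

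Levels were means of CP10K per library and cluster. Profiles with 20 or more cells were fitted, over genes averaging 0.1 CP10K or more, with limma 3.58.1 (R 4.3.3; trend and robust prior) on log2(CP10K + 0.1), with library as a block, and p-values were adjusted by Benjamini-Hochberg over all genes; all 9 members listed for donor cells and 6 of 10 in keratinocytes passed the filter. The fit was tested on simulated data. For clusters, p-values measure how differences between clusters varied over libraries, since the block removes differences between whole libraries. Which libraries share mice or an experiment was not given. This spread was estimated over all clusters of a fit and moderated over genes, also for keratinocytes. Between donor labels, p-values rest on the spread between libraries of the BMT label. Intervals (95%) and floors (3 counts) cover counting error only. The members and gene lists were chosen with earlier results of these data known. The text names all members, up to 4 other lipid genes with the largest fold change that passed per contrast, and the 3 genes most like each member. Promoter windows were those of RefSeq; names and positions were taken from its GRCm38.p6 annotation, where all 10 members matched. Alternatives were other pseudocounts, filters, averages, limma-voom, the block, the cell minimum and each library left out; the filter on cells (at least 500 genes, at most 20% mitochondrial UMIs) and the removal of single top cells were added after seeing the data.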

Additional observations from a re-analysis of the deposited data

Results flagged for a closer look

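Abca1 and Cd36 differed in sign between the 2 labels when the mean levels of Mrc1+ macrophages were set against Mono. Abca1 was higher in the macrophages of all 3 BMT libraries, with log2 differences of 2.06, 1.22 and 1.71, and lower in the BMT + T cells library (-0.19). Cd36 was likewise higher in the 3 BMT libraries (1.88, 2.27 and 0.65) and lower in the BMT + T cells library (-0.44). With 1 library under the second label the difference between labels was not tested, and the sign in that library was not stable. When the UMIs of its cells were pooled, Abca1 was 2.17 CP10K in the macrophages and 1.99 in Mono, and Cd36 0.563 and 0.337. Its Cd36 level in Mono rested on 26 UMIs, 16 of them from 1 cell, and without the top cell of each cluster the pooled Cd36 values were 0.477 in the macrophages and 0.138 in Mono. With only cells that met the stated filter, mean Cd36 was 0.595 in the macrophages and 0.486 in Mono, while Abca1 stayed lower in the macrophages (2.60 and 2.78).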

How the results depend on the processing

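Of 729 refits of single members under alternatives, 630 kept their direction and their side of the threshold, 40 lost a call, 20 gained one and 39 changed direction; every member that changed direction had not passed in the contrast concerned. The cause of the shifts below was not tested, unless the alternative removed libraries. Counts of members called moved by over 1.5 times as follows. For Mrc1+ macrophages against Mono, 1 became 0 without the filter on low values and without the replicate block, 2 with means of log values, with at least 50 cells and with cells that met the stated filter, and 3 with limma-voom, and it was 0 to 1 when each library was left out. For Mrc1+ macrophages against resident mLC, 8 became 5 with means of log values. For migrating against resident mLC, 3 became 5 with a pseudocount of 0.01, with limma-voom and with at least 50 cells, and was 2 to 5 over libraries left out. For Hmox1+ monocytes, 7 became 3 without the replicate block and was 3 to 7 over libraries left out. For hair follicle against basal keratinocytes, 3 became 5 without the filter on low values, which added members with few counts. Between donor labels, the count of 0 moved only without BMT 3, where the label coincided with the form of the library names. Over all genes, the calls for Mrc1+ macrophages against Mono went from 571 to 200 without the block and 1831 with limma-voom, and for Hmox1+ monocytes from 1126 to 581 without the block.

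The log2 differences that changed sign were these. For Plin2 between resident mLC and Mono it was -0.0021 with a pseudocount of 1, and -0.11 to 0.14 over libraries left out. For Mrc1+ macrophages against Mono, Apoe was 0.070 with limma-voom, 0.17 with at least 50 cells and -0.74 to 0.34 over libraries left out; Lpl was 0.011 with a pseudocount of 1, 0.014 with means of log values, 0.72 with limma-voom, 0.30 with at least 50 cells and -0.30 to 0.29 over libraries left out; Pltp was 0.0057 with at least 50 cells and -1.29 to 0.025 over libraries left out; and Plin2 was -0.023 with means of log values, as it was against resident mLC (-0.025). For migrating against resident mLC, Apoe was -0.56 and Abcg1 0.27 without the replicate block, Abcg1 was 0.054 with limma-voom and -0.22 to 0.23 over libraries left out, and Plin2 was -0.24 to 0.023 over libraries left out. Between donor labels, the form of the library name as a term gave Apoe -0.96, Fabp5 0.82, Abcg1 0.044, Cd36 0.17, Plin2 -0.41, Lrp1 -0.15 and Pltp -0.28. There the mean over all cells of a library gave Lpl -0.53, Abca1 -0.046, Cd36 0.23, Lrp1 -0.30 and Pltp -0.39. Over donor libraries left out, the label difference was -0.25 to 0.10 for Cd36, -0.93 to 0.014 for Fabp5, -0.038 to 0.36 for Lpl, -0.014 to 0.28 for Lrp1 and -0.074 to 0.30 for Plin2.

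Clusters were drawn from the same cells, libraries pool mice, only 2 to 4 libraries entered each contrast, and the keratinocyte labels and the host, with 1 library each, gave values with no test. Leaving out a library that is the only one of its label leaves no label contrast. Where a member was counted 0 times, such as Fabp4 in keratinocytes, depth gives a limit and does not show absence.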
